A study of Mus musculus with 7 samples.

Results

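Angptl7 fibroblasts are a minor population of the stroma of the mouse seminal vesicle, the gland that makes much of the fluid of the semen. A cell was counted among them by its transcripts: at least 500 genes, at most 10% mitochondrial UMIs (unique molecular identifiers, each standing for 1 captured mRNA molecule), at least 2 UMIs of Angptl7, at least 1 of the 5 stromal genes Col1a1, Col1a2, Pdgfra, Dcn and Lum detected, and 0 UMIs of Ptprc and Pecam1, which mark leukocytes and endothelium. The rule found 147 cells among 22065 cells that passed the first 2 limits in 21 mice. The whole series holds 53352 deposited cells of 23 mice, of which 40342 passed those limits. The members were thus chosen by their Angptl7 level, and that level is given below as a description only.

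The 21 mice came from 3 sets of 3' single-cell libraries. The aging pool held 10 C57BL/6J males on chow: 2 at 3 months (Y), 2 at 20 and 2 at 28 months without treatment (20C, 28C), and 2 at each of these older ages given rapamycin (20R, 28R). The diet pool held 8 FVB/NJ males of 3 months, 2 each on the control diet (Ctrl), caloric restriction (CR), a high fat diet (HF) and a low protein diet (LP), and the 3 diet single-mouse libraries each held 1 FVB/NJ male of 3 months on the control, high fat or low protein diet. Strain therefore went with the set of libraries and cannot be told apart from it, and each pool was 1 run of mice told apart by sample tags. The cells that passed carried from 974010 to 14753284 UMIs per mouse in the pools and from 35673458 to 46338707 per mouse in the single-mouse libraries. No cell barcode was shared between mice of the same pool over 73 pairs of tables, and 105 barcodes were shared over 137 pairs of different libraries, at most 11 in a pair.

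ANGPTL7 is a secreted protein of the angiopoietin-like family, best known from the corneal stroma and the trabecular meshwork of the eye. Fibroblasts lay down the collagens, proteoglycans and elastic microfibrils of connective tissue, and fibroblasts that lie close to an epithelium also secrete regulators of WNT, BMP and growth factor signals. WIF1 and the SFRP proteins bind WNT ligands outside the cell, and RORB is a nuclear receptor. Small leucine-rich proteoglycans such as fibromodulin and osteoglycin coat collagen fibrils, and are abundant in dense tissues such as tendon and sclera.

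In the GENCODE annotation of the mouse genome build GRCm38 the Angptl7 gene (ENSMUSG00000028989) lies on chromosome 4 from 148495183 to 148500460 on the minus strand, within intron 28 of the 57 introns of the transcript Mtor-202, which runs on the plus strand. Its main transcript has 5 exons. Mtor itself, the kinase that rapamycin acts on, gave 5 UMIs in all Angptl7 cells together. The sequence around the start of Angptl7 is shown because the whole population is defined by this gene. It is the RefSeq promoter window of 250 bases before to 50 bases after the start (GRCm38.p6, minus strand, chr4:148500413-148500712), written 5′ to 3′, with the only match to a searched motif in capitals.

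Angptl7: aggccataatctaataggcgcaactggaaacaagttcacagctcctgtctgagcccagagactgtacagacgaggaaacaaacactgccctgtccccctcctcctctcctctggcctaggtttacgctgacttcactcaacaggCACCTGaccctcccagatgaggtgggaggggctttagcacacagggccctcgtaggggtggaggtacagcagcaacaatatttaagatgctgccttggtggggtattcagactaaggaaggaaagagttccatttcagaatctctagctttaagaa

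Motifs of 4 kinds were searched on both strands: the TATA box TATAAA, the E-box core CAGGTG, the steroid receptor half-site AGAACA and the TEAD core GGAATG. The capitals mark CACCTG, the E-box core on the opposite strand. Of 27025 RefSeq promoters of the same length, 20.03% held this core, 14.2% TATAAA, 19.0% AGAACA and 14.6% GGAATG. Promoters were matched for 11 of the 15 genes with the largest rise described below, and the E-box core was in 2 of them, those of Fxyd6 and Col8a1.

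The Angptl7 cells were rare in nearly every mouse, and 18 of the 21 mice had at least 1. There were 19 in the aging pool, from 9 of the 10 mice, 22 in the diet pool, from 6 of the 8 mice, and 106 in the 3 single-mouse libraries (33 in the control, 57 in the high fat and 16 in the low protein mouse). Mice CR1, Ctrl2 and 20R2 had none, which for CR1 allows a share of up to 0.604% of its fibroblasts. The median member held 4384 UMIs in the aging pool, 3619.5 in the diet pool and 1111 in the single-mouse libraries, so most members come from cells of low depth.

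Angptl7 itself, on which the members were selected, ranged from 2 to 47 UMIs per cell with a median of 4. Just inside the threshold stood 28 cells with exactly 2 UMIs and 32 with 3, and 79 fibroblasts with 1 UMI stood just outside it. A further 87 cells had 4 or more and 24 had over 10. The members held 89.5% of all Angptl7 UMIs in the cells that passed, and 2 other cells with at least 2 UMIs failed another limit. In the 7 mice compared below, Angptl7 had 1131 CPM (UMIs of a gene relative to the total of its library, after TMM scaling) in the lowest mouse, 2412 CPM in the median mouse and 6983 CPM in the highest.

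Angptl7 UMIs were rare in cells with markers of other types. At least 1 UMI was seen in 0.553% of 1988 immune cells and 0.310% of 8068 epithelial cells, against 7.24% of 2664 fibroblasts. The exact 95% interval of the last, 6.29 to 8.30%, pools cells and covers counting error only. By set the fibroblast share was 4.41% in the aging pool, 2.93% in the diet pool and 19.8% in the single-mouse libraries, all outside it. The immune and epithelial shares were highest in the aging pool, at 0.769% and 0.810%. An Angptl7 UMI was seen in 0 of 620 endothelial cells, which allows a share of up to 0.593% (exact 95% interval). Median depths were 3567 UMIs in immune, 2291 in endothelial, 12865 in epithelial cells and 2684 in fibroblasts. A cell was counted as epithelial here with Epcam and at least 2 of Krt8, Krt18, Cldn4 and Krt5. Of the 25 such cells with an Angptl7 UMI, 20 also had at least 1 of the 5 stromal genes, and the share was 0.0763% in the 6554 epithelial cells with none of these genes. At the threshold of 2 UMIs the shares were 0 in immune and endothelial cells and 4.88% in fibroblasts. The 11 epithelial cells that reached it were all members of the Angptl7 population.

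At least 3 of the 5 stromal genes were detected in 130 of 147 cells, and 27 cells had all 5. As the rule itself asked for 1 of these genes and for 0 UMIs of Ptprc and Pecam1, this describes the members and is no independent check of their name. None of the 147 cells carried 2 or more markers of endothelium, leukocytes or Schwann cells, and the Schwann cell genes Sox10, S100b and Cdh19 had 0 UMIs in all members. At least 2 pericyte markers were found in 1 cell, perineurial markers in 2, epithelial markers in 15 and smooth muscle markers in 21, where any 2 of the 5 epithelial genes sufficed and Epcam was not required. Within the 7 mice compared below, the 5 epithelial genes summed to more in the members than in other fibroblasts of 3 mice and to less in 4, from 0 CPM in 28C2 and HF1 to 853 CPM in the high fat single-mouse library, against 90.6 to 1108 CPM. Krt18 led the sum in that library. Their part in the results was not tested.

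A small subset of the members carried mesothelial genes, the genes of the layer that covers the gland. Of the 19 members in the aging pool, 5 had at least 2 of Msln, Upk3b, Lrrn4, Wt1 and Krt19, against 1 of 22 in the diet pool and 1 of 106 in the single-mouse libraries. Summed over these 5 cells Upk3b reached 3462 CPM, Gpm6a 1462 CPM and Msln 1166 CPM, while the other 14 aging pool members had 0 UMIs of all 3 genes. The 5 cells also held all 92 Krt18 UMIs and 56 of the 57 Krt8 UMIs of the aging pool members. Not each of the 5 carried these transcripts. Mouse 28C2 had 1 of them, and its members together held 4 UMIs of the mesothelial list, led by Wt1, and 0 of the epithelial list. Mfap4, a microfibril protein, was at 55.5 CPM in the 5 cells and at 1681 CPM in the 14. Over the aging pool members the mesothelial list summed to 3070 CPM, led by Upk3b, against 294 CPM in other fibroblasts; in the single-mouse libraries Msln, Upk3b and Lrrn4 were at 0 in both groups. With these cells left out mouse 28C2 fell below 5 cells and left the comparison described below, and 149 of 1418 genes were called in the other 6 mice, against 157 of 1554 without 28C2 alone and 142 of 1577 in all 7 mice.

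**Figure D1:**
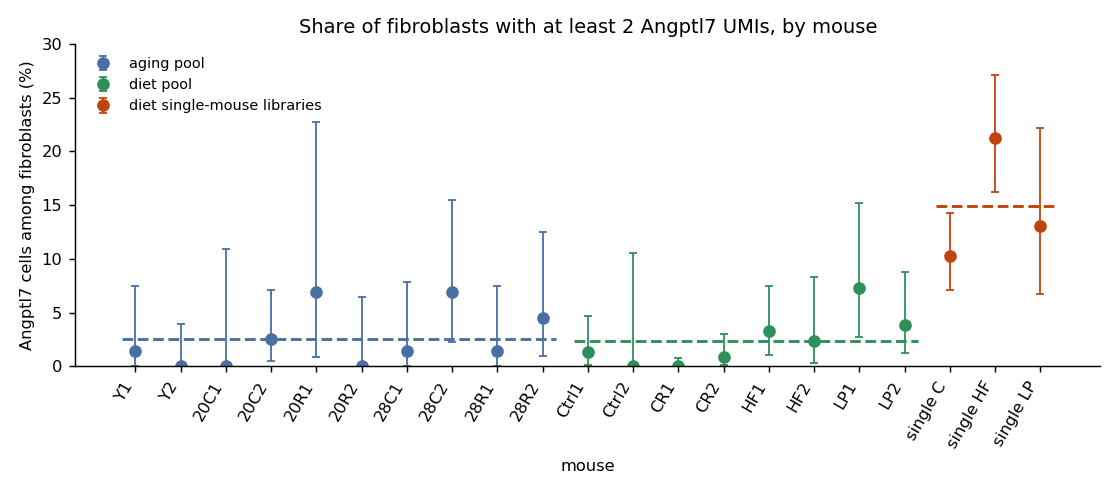
Share of fibroblasts with at least 2 Angptl7 UMIs (vertical axis, percent) in each of the 21 mice (horizontal axis), with exact 95% binomial intervals for each mouse and the mean of each set as a dashed line. The 3 single-mouse libraries sit between 10.3% and 21.3%, above every mouse of the pools, which lie between 0 and 7.32%.

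The share of Angptl7 cells was taken over fibroblasts with at least 3 of the 5 stromal genes and no Ptprc or Pecam1 UMI. In the aging pool the share was 0 in the lowest mouse, 1.42% at the median and 6.94% in mouse 28C2, with a mean of 2.50% ± 2.69 (SD, n = 10). In the diet pool it was 0 in the lowest mice, 1.85% at the median and 7.32% in mouse LP1, with a mean of 2.37% ± 2.45 (SD, n = 8). In the single-mouse libraries it was 10.3% in the control, 13.1% in the low protein and 21.3% in the high fat mouse, with a mean of 14.9% ± 5.70 (SD, n = 3). The pools overlapped, and the 3 diet single-mouse libraries lay above both at these limits. At 4 or more Angptl7 UMIs the control single-mouse library, at 3.99%, lay below LP1 (6.10%) and 28C2 (5.56%), and the difference from the diet pool was 6.98 points (exact permutation test, p = 0.0121). Thinned to 1500 UMIs it equalled 28C2 at 14.7%, each with 5 of 34 cells. A pair of further FVB/NJ single-mouse libraries outside the rule, of 3 and 18 months, lay within the range of the pools at 3.07% and 2.08%.

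The single-mouse libraries exceeded the diet pool, of the same strain and age, by 12.5 percentage points (exact two-sided permutation test over 3 and 8 mice, p = 0.00606, the smallest that 165 splits allow). Caloric restriction was a diet of the pool alone, and without its 2 mice the difference was 11.9 points (exact two-sided permutation test over 3 and 6 mice, p = 0.0119, the smallest that 84 splits allow), a test added after the data were seen. With every cell thinned to 800 UMIs, a test added after the data were seen, the means were 15.8% ± 7.51 and 0.741% ± 1.43, with the same p of 0.00606 by the exact permutation test. Tagging and pooling, depth per cell and the version of the alignment software differed between these sets and cannot be told apart from each other. Intervals and limits cover counting error only.

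Within the aging pool the groups overlapped for both age and rapamycin. The 2 mice at 3 months had 1.39% and 0, a mean of 0.694% ± 0.982, and the 8 older mice ranged from 0 to 6.94% with a mean of 2.96% ± 2.83 (difference -2.26 points, exact two-sided permutation test, p = 0.311, 45 splits). Mice given rapamycin had a mean share of 3.19% ± 3.099 and untreated mice of the same ages 2.72% ± 2.99 (n = 4 each; exact permutation test, p = 0.943, smallest possible p 0.0286). The sign of this difference turned in 4 of 5 other settings that kept all mice, from 0.47 points to between -3.10 and -0.20.

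The diet pool held 2 mice per diet. The 2 control mice had 0 and 1.32% and the 2 on caloric restriction 0 and 0.855%. Both high fat mice, at 2.38% and 3.27%, and both low protein mice, at 3.85% and 7.32%, lay above both controls. The differences from control were -0.235, 2.16 and 4.92 points for caloric restriction, high fat and low protein, and the first turned to 1.45 points at 1 or more Angptl7 UMIs and 0.0762 points with 1 of 5 stromal genes. With 2 mice against 2 an exact permutation test cannot go below p = 0.333, which high fat and low protein both reached, and caloric restriction had p = 1. With every cell thinned to 800 UMIs the low protein mice were at 0 and 3.70% and the controls at 0 and 2.22%, so that the groups overlapped (difference 0.741 points, exact permutation test, p = 1), and the high fat difference was -1.11 points. The high fat and control mice also overlapped at 4 or more Angptl7 UMIs, with HF2 at 1.19% and Ctrl1 at 1.32%. Thinned to 1500 UMIs they overlapped too, at 2.17% in HF2 and 2.41% in Ctrl1. In the single-mouse libraries, with 1 mouse per diet and no test, high fat exceeded control by 10.98 points and low protein by 2.80 points.

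To see what sets these cells apart, their UMIs were summed per mouse and compared with other fibroblasts of the same mouse, 2471 cells with 0 Angptl7 UMIs and at least 3 of the 5 stromal genes. At least 5 cells in each group were found in 7 mice: 28C2, HF1, LP1, LP2 and the 3 single-mouse libraries. Of 1577 genes tested, 84 were higher in the Angptl7 cells (5.33% of the genes tested) and 58 were lower (3.68%), at a Benjamini-Hochberg adjusted p under 0.05 in an edgeR quasi-likelihood fit that kept each mouse as a block. Among the genes tested, 12 of 26 interstitial matrix genes rose and none fell, and Wif1, Rorb and Wnt2 all fell. Against the Col6a5-side fibroblasts described below, none of the 12 interstitial matrix genes tested was called. Scaled to library size alone the same test called 56 genes higher and 130 lower, and the median of all genes shifted from -0.03 to -0.24 on the log2 scale, so the balance of rises and falls rests on the scaling. Without the 3 single-mouse libraries 59 genes were called, and without the high fat single-mouse library 76.

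The genes with the largest rise were Fibin, Myoc, Fxyd6, Fam180a, Fndc1, Mfap4, Ccn2, Col8a1, Fmod, Tm4sf1, Ogn, Cilp, Itgbl1, Plod2 and Sfrp1, with log2 changes from 3.98 down to 2.16, each higher in 7 of 7 mice. Fibin, a secreted protein, was at 104 CPM in the lowest mouse, 231 CPM at the median and 1103 CPM in the highest among Angptl7 cells, against 0, 18.4 and 40.1 CPM in other fibroblasts. The lowest Angptl7 value was above the highest of the other fibroblasts, as for 23 of all 1577 genes tested (1.46%), and the log2 change was 3.98 ± 0.55 (SE, edgeR adjusted p = 2.82e-04). Myoc encodes myocilin, like ANGPTL7 a secreted protein of the trabecular meshwork. Its levels ran from 138 over 482 to 1086 CPM in Angptl7 cells and from 0 over 66.7 to 134 CPM in the others, also without overlap, with a log2 change of 3.43 ± 0.58 (edgeR adjusted p = 0.00512). Fibin was so low in other fibroblasts that it passed the filter on low counts through the Angptl7 cells, and could only come out higher. Its separation and fitted change are a description only. The same limit holds for Myoc and other rises with low levels in other fibroblasts.

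Among structural genes of the list of interstitial matrix, 26 of 32 passed the filter on low counts. Of these 12 were higher, beside 5.33% of all genes tested, none was lower, beside 3.68%, and 14 did not pass the test. The median log2 change of the 26 was 0.99, beside -0.03 over all genes tested, and a member that passed the filter through its level in the Angptl7 cells alone had to differ. Mfap4, a protein of elastic microfibrils, had 1460 CPM in the lowest mouse, 2688 at the median and 3117 in the highest in Angptl7 cells, against 136, 399 and 841 CPM in other fibroblasts (log2 change 2.76 ± 0.27, edgeR adjusted p = 2.00e-05). Ogn, osteoglycin, ran from 659.6 over 1139 to 1240.4 CPM against 127 over 218 to 255 CPM, with the same order in 7 of 7 mice (log2 change 2.37 ± 0.22, edgeR adjusted p = 2.62e-06). Both genes, picked from the largest rises, separated the groups.

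Fibromodulin followed the same pattern. Fmod was at 214 CPM in the lowest, 433 in the median and 678 in the highest mouse, against 14.3, 104 and 134 CPM (log2 change 2.54 ± 0.38, edgeR adjusted p = 3.49e-04). The cartilage intermediate layer protein gene Cilp (2.23), the short-chain collagen Col8a1 (2.72), the fibril-associated collagens Col12a1 (2.06) and Col16a1 (1.35), and Col6a3 (1.82), a chain of beaded-filament collagen, rose as well, with Fbln1 (1.19), Tnxb (1.07), Bgn (0.84) and Sparc (1.35), all as log2 changes. The fibrillar collagen Col3a1 had 0.25 ± 0.23 and elastin, Eln, 1.83 ± 0.58, neither past the test (edgeR adjusted p = 0.620 and 0.0876).

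Of the matrix proteases and their inhibitors, 12 of 20 passed the filter. Of these 5 were higher, beside 5.33% of all genes tested, none was lower, beside 3.68%, and 7 did not pass the test, a description with the same limit as for the matrix genes. Among the 5 were the metalloproteinase inhibitor Timp2 (0.75), the serine protease inhibitor Serping1 (0.86), the metalloproteinase Mmp23 (1.07) and Lox (1.78), which cross-links collagen and elastin. Plod2, which modifies collagen lysines ahead of that step, was among the largest rises at 2.16 ± 0.33. Ccn2, the connective tissue growth factor gene, rose by 2.73 ± 0.37 on the log2 scale, from 133, 365 and 721 CPM in the lowest, median and highest mouse of other fibroblasts to 857, 1756 and 5249 CPM (edgeR adjusted p = 0.00168).

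Of the 17 genes of the basement membrane, the sheet beneath the epithelium, 12 passed the filter on low counts. None was higher, beside 5.33% of all genes tested, 3 were lower, beside 3.68%, and 9 did not pass the test, with a median log2 change of -0.60. The laminin chains Lamc3 (-2.82) and Lama2 (-1.50) and the collagen Col18a1 (-2.001) were the 3 that fell. Lamc3 was at 0, 23.1 and 156 CPM in the lowest, median and highest mouse of Angptl7 cells, against 144, 261 and 321 CPM, so that the ranges overlapped slightly.

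**Figure D2:**
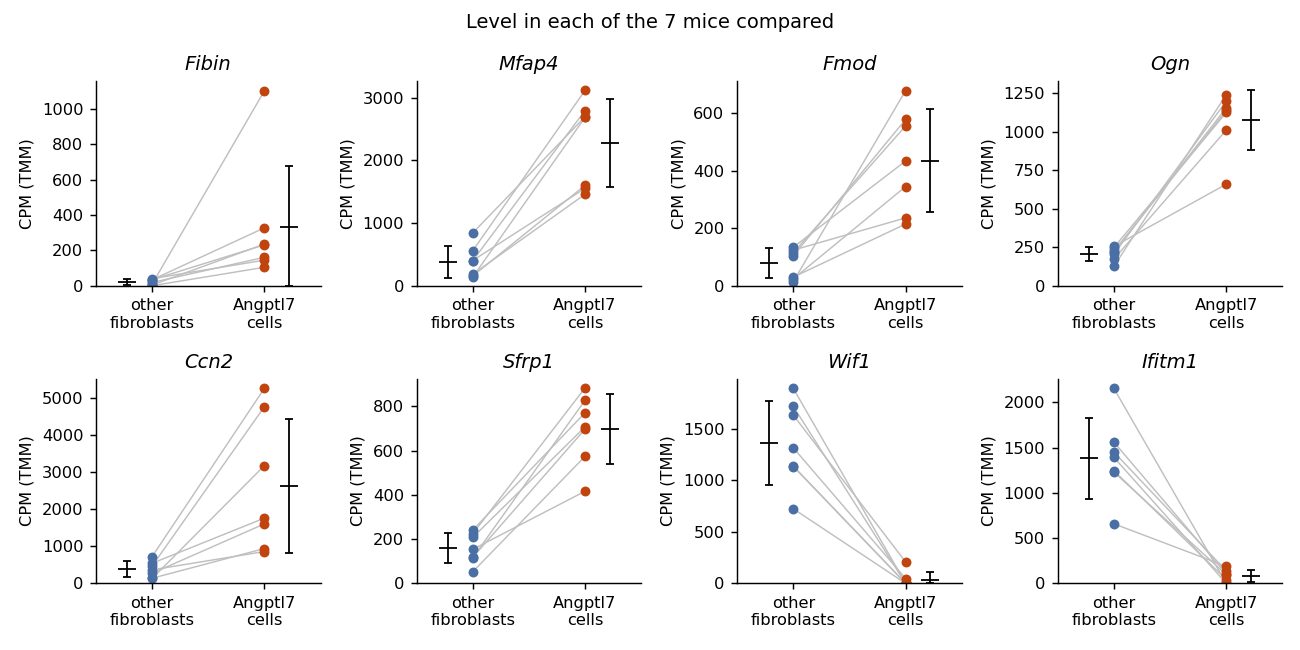
Level in CPM scaled by TMM (vertical axes, from 0) of 8 genes in other fibroblasts (blue) and Angptl7 cells (red) of the same mouse, joined by grey lines for the 7 mice compared, with mean and SD in black (lower bars end at 0 where the SD exceeds the mean). Fibin, Mfap4, Fmod, Ogn, Ccn2 and Sfrp1 are higher and Wif1 and Ifitm1 lower in Angptl7 cells in all 7 mice.

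On the falling side the largest changes were in Wif1, Rorb, Ifitm1, Wnt2, Wfdc1, Cxcl14, Gm13889, Lamc3, Rgs2 and Sema5a, each lower in 7 of 7 mice. Wif1 was at 0 in 5 of the 7 mice and at 208 CPM in the highest, against 725, 1316 and 1893 CPM in the lowest, median and highest mouse of other fibroblasts (log2 change -4.86 ± 0.49, edgeR adjusted p = 2.70e-05). Rorb was at 0, 53.6 and 104 CPM against 415, 563 and 1461 CPM, a log2 change of -4.13 ± 0.40 (edgeR adjusted p = 2.62e-06). Ifitm1, an interferon-induced membrane protein, was at 0, 96.3 and 188 CPM against 658, 1391 and 2152 CPM, with a log2 change of -3.98 ± 0.38 (edgeR adjusted p = 3.96e-06). None of the 3, picked for their large changes, overlapped between the groups. Of all 1577 genes tested, 26 were lower without overlap (1.65%). Wif1 was so low in Angptl7 cells that it passed the filter on low counts through the other fibroblasts, and could only come out lower. Its separation and fitted change are a description only. The same limit holds for Wnt2 and other falls with low levels in Angptl7 cells.

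Of the list of WNT ligands and secreted regulators only 6 of 22 passed the filter. Calls here are given beside 5.33% higher and 3.68% lower over all genes tested. Sfrp1, a secreted WNT antagonist, rose by 2.16 ± 0.25 on the log2 scale, from 52.4, 154 and 240.4 CPM in the lowest, median and highest mouse to 416, 707 and 882 CPM (edgeR adjusted p = 1.44e-05). The ligand Wnt2 (-3.68), the antagonist Wif1 and Igfbp4 (-1.07) were lower, and Rspo3 (0.65 ± 0.33) and Sfrp2 (-0.83 ± 0.85) did not pass the test. The antagonists that bind WNT proteins thus moved in both directions. No gene of the BMP and TGF-beta list passed among 7 of 21 tested, with Inhba the nearest at a log2 change of 1.21 ± 0.38 (edgeR adjusted p = 0.0574).

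Genes for factors that reach the epithelium gave few calls. Igf1 was lower by 1.92 ± 0.40 on the log2 scale (fell from 939 to 337 CPM at the median mouse, edgeR adjusted p = 0.0129), and Kitl, at 0.95 ± 0.36, did not pass; 3 of the 22 genes on this list could be tested. Of 26 chemokine, cytokine and complement genes, 1 was not in the tables and 11 were tested: 2 were higher, among them Csf1 (1.07), and Cxcl12 (-1.22) and Cxcl14 (-3.02) were lower, beside 5.33% higher and 3.68% lower over all genes tested. Of 12 antigen presentation genes 3 were tested, and H2-D1, a class I heavy chain, rose by 0.54 ± 0.14 (edgeR adjusted p = 0.0206). Of 12 genes of retinoid handling 4 were tested and Rdh10, which makes retinaldehyde, was lower (-2.05).

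The markers of other kinds of fibroblast could be tested in part. Their calls stand beside 5.33% higher and 3.68% lower over all genes tested. Of 13 adventitial genes 9 were tested: Penk was lower (-1.81), and Pi16 (1.45 ± 0.52), Cd34 (0.45 ± 0.29) and Ly6a (0.04 ± 0.18) did not pass the test. Of 12 genes of subepithelial fibroblasts and telocytes only F3 could be tested (0.36 ± 0.35). Of 7 endoneurial genes 4 were tested, with Cilp higher and Wif1 lower. Angptl2, the member of the angiopoietin-like family with the most UMIs after Angptl7, gave 52 UMIs or 120.5 CPM in all Angptl7 cells summed and 15.7 CPM in other fibroblasts, but was under the filter, as were the other members of its family.

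Genes induced by tissue dissociation and transcripts of other cells were read beside these results. Over all genes tested, 5.33% were higher and 3.68% lower. Of 19 dissociation genes all were tested: Fosb (0.69) and Jun (0.53) were higher, Junb (-0.65) and Ier3 (-0.56) lower, and 15 did not pass. Of 6 smooth muscle genes 3 were tested and Des was lower (-2.05). Summed within each mouse, before TMM scaling, the smooth muscle list was lower in the Angptl7 cells of 6 of 7 mice, though only barely in the control single-mouse library (665 against 669 CPM), and higher in HF1 (4102 against 3677 CPM). Tagln, which led the list in most mice, was itself higher in the Angptl7 cells of 28C2, HF1, the control and the low protein single-mouse library, after TMM scaling. The immune list was at 0 in the Angptl7 cells of 28C2, HF1 and LP2 and at 48.8 CPM in those of LP1, against 70.4 to 134 CPM in other fibroblasts of these 4 mice. In the control, high fat and low protein single-mouse libraries it was at 1014, 1997 and 1977 CPM against 1097, 1402 and 1362 CPM. Cd52 led it wherever it was above 0, and Tyrobp, Coro1a and Laptm5 were at 0 in the members of every set. The 6 Svs genes, which encode the main secreted proteins of the epithelium, gave no call. They summed to more in the Angptl7 cells of the 3 single-mouse libraries, from 224089 to 402321 CPM against 171570 to 244160 CPM in other fibroblasts. In the 4 pool mice they summed to less, at 5271 against 7703 CPM in 28C2, 2596 against 7483 CPM in HF1, 2684 against 4620 CPM in LP1 and 2196 against 11018 CPM in LP2. Svs5 led in each. Their part in the other results was not tested. With the Svs genes left out of the counts and library sizes 123 genes were called. All 21 of the 25 genes named above that were still tested kept their direction and call. Those genes were picked for their large changes in the same data, and other epithelial transcripts stayed in the counts.

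The comparison cells were a mixture. Of the 2471 other fibroblasts, 55.7% had at least 2 UMIs of Wif1, Rorb and Wnt2 together and 14.6% at least 2 of Col6a5 and Clec3b together. Of the 147 Angptl7 cells 4 (2.72%) met the first condition and 54 (36.7%) the second. To set depth aside, every cell was thinned to 800 UMIs, which kept 141 Angptl7 cells and 2451 others. Wif1 was then detected in 0.709% of Angptl7 cells and 33.7% of the others, Rorb in 2.84% and 32.8%, and Wnt2 in 0 (up to 2.13%, taking 3 cells as the limit) and 17.5%. Col6a5, a chain of collagen VI, was detected in 27.0% and 5.10%, and Clec3b, which encodes the plasminogen-binding protein tetranectin, in 22.0% and 10.6%.

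**Figure D3:**
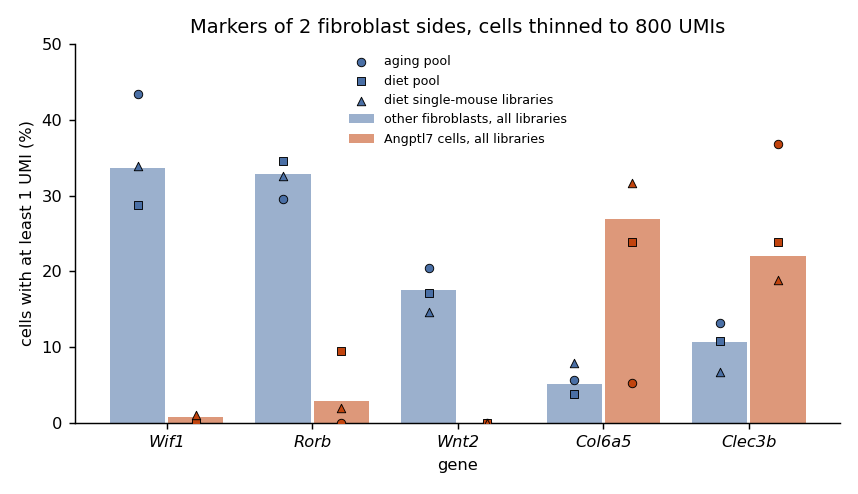
Percent of cells with at least 1 UMI (vertical axis) of 5 genes (horizontal axis) after thinning every cell to 800 UMIs, in other fibroblasts (blue) and Angptl7 cells (red); bars give all libraries together and points the 3 sets. Wif1, Rorb and Wnt2 are close to 0 in Angptl7 cells of every set, up to 9.52% for Rorb in the diet pool, and Col6a5 in the aging pool (5.26%) is the exception to its higher share elsewhere.

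The 2 genes of the Col6a5 side ran in opposite orders over the sets. Thinned shares of Col6a5 in Angptl7 cells were 5.26% of 19 cells in the aging pool, 23.8% of 21 in the diet pool and 31.7% of 101 in the single-mouse libraries, against 5.69%, 3.78% and 7.95% of other fibroblasts. The aging pool share is 1 cell. Those of Clec3b were 36.8%, 23.8% and 18.8% in Angptl7 cells, against 13.2%, 10.8% and 6.69% of other fibroblasts. Before thinning, 52.6%, 63.6% and 28.3% of the members had at least 2 UMIs of the pair together, so that members of this side were found in every set. Over the 7 mice Col6a5 was higher in 6 of 7, with a log2 change of 1.80 ± 0.36 (edgeR adjusted p = 0.00313), and Clec3b, at 1.54 ± 0.61, did not pass (edgeR adjusted p = 0.180).

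Against the 2849 fibroblasts on the Wif1 side alone (at least 2 UMIs of Rorb, Wif1 and Wnt2, and more than of Col6a5 and Clec3b) more genes were called. In the same 7 mice 141 of 1818 genes were higher in the Angptl7 cells (7.76%) and 159 were lower (8.75%) by edgeR's quasi-likelihood test, with these marker genes left out. Without the high fat single-mouse library 115 of 1341 genes were higher and 76 lower, and rises also outnumbered falls when HF1, LP1, LP2 or the control single-mouse library was left out, so the balance of rises and falls is not settled here. Of the 24 interstitial matrix genes tested 22 were higher and none lower, a description only, since genes near 0 on the Wif1 side, such as Aspn (0 to 34.1 CPM) and Col8a1 (0 to 24.3 CPM), passed the filter through the Angptl7 cells and could only come out higher. Ogn was at 594 CPM in the lowest, 1088 in the median and 1133 CPM in the highest mouse of Angptl7 cells and at 7.59, 17.3 and 33.8 CPM on the Wif1 side (log2 change 5.67 ± 0.28, edgeR adjusted p = 1.26e-11). Ogn RNA was thus close to absent from Wif1-side fibroblasts, as low as Aspn there, so the same limit holds for its fitted change.

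The comparison cells of both sides were held to 1 of the 5 stromal genes, a looser limit than the 3 asked of the other fibroblasts, and some carried epithelial transcripts. In mouse 28C2 the Wif1-side cells had Svs5 at 124639 CPM and Krt18 at 620 CPM, where the other fibroblasts of that mouse had 4052 and 51.8 CPM. With at least 3 stromal genes asked of the comparison cells, an alternative added after the data were seen, 1364 Wif1-side cells were left, 842 genes could be tested, and 96 were higher and 57 lower by edgeR. Interstitial matrix then gave 14 higher genes and none lower of 19 tested. Ogn had a log2 change of 5.21 ± 0.28 (edgeR adjusted p = 4.40e-08). The limit given above holds for the list and for Ogn. Of the 12 genes named next only Aspn, Ctla2a, Col8a1 and Ifitm1 could still be tested, and these 4 kept their direction and call.

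The 6 largest rises were Myoc (7.54 ± 0.50), Fibin (7.17 ± 0.47), the small leucine-rich proteoglycan Aspn (6.89 ± 0.75), the estrogen sulfotransferase Sult1e1 (6.80 ± 0.50), Ctla2a (6.06 ± 0.57) and Col8a1 (5.88 ± 0.54), as fitted log2 changes. Apart from Ctla2a these genes were near 0 on the Wif1 side, with 5 UMIs of Myoc, 4 of Fibin, 12 of Aspn, 9 of Sult1e1 and 12 of Col8a1 in all 7 mice, against 138, 62, 163, 82 and 78 in the Angptl7 cells. They passed the filter through the Angptl7 cells, and the size of their fitted changes and their order rest on those few UMIs. Ctla2a encodes a small inhibitor of cysteine proteases. It held 7512 CPM in the lowest and 24593 CPM in the highest mouse of Angptl7 cells and from 82.5 to 407 CPM on the Wif1 side. Against all other fibroblasts Ctla2a was also higher in 7 of 7 mice, at 13041 ± 6465 against 1346 ± 916 CPM (SD, n = 7), but did not pass (log2 change 3.55 ± 0.89, edgeR adjusted p = 0.0627).

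The largest falls were Coch, Gatm, Pla2g7, Bmp2, Col23a1 and Ifitm1. Coch, which encodes the matrix protein cochlin, had 0 UMIs in the Angptl7 cells of all 7 mice and 302 in the Wif1-side cells, which puts its level at least 11.8-fold lower, taking 3 UMIs over the group as the limit. The creatine synthesis gene Gatm had 1 UMI against 505, a ratio of 59.0 (exact counting interval 10.5 to 2335). The ligand Bmp2 and the lipase Pla2g7 each had 1 UMI against 361, a ratio of 42.2 (7.52 to 1670.5), and the transmembrane collagen Col23a1 had 2 against 662, a ratio of 38.7 (10.7 to 320). These fitted changes rest on single UMIs, whereas Ifitm1, with a log2 change of -4.64 ± 0.39 (edgeR adjusted p = 1.99e-06), had 17 UMIs against 4914. Genes with so few UMIs in the Angptl7 cells passed the filter through the Wif1-side cells, and could only come out lower. The counting intervals take UMIs summed over the 7 mice and leave out the spread between mice.

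Other lists gave calls in both directions, to be read beside 7.76% higher and 8.75% lower over all genes tested. Wnt4 and Igfbp4 were lower (-3.87 and -1.37) and Rspo3 and Sfrp1 higher (1.01 and 3.26) among 5 tested WNT genes. The complement gene C3 rose by 3.59 on the log2 scale and Cxcl10 (-1.95) and Cxcl14 (-3.10) fell. Of 8 adventitial genes tested Pi16 rose (2.64) and Penk fell (-2.08), and of 12 basement membrane genes Lamc1 and Nid1 rose and 5 fell (Lamc3, Lama2, Col18a1, Col4a6 and Col15a1).

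Fibroblasts on the Col6a5 side (398 cells with at least 2 UMIs of Col6a5 and Clec3b, and more than of Rorb, Wif1 and Wnt2) gave no call against the Angptl7 cells. Only 351 genes could be tested, 0 were called (0% of the genes tested), and 35 had an unadjusted p under 0.05 by edgeR, against 10 calls by DESeq2. The depth here was low, since these cells were few, and 0 calls do not show that the groups are alike. Of 12 interstitial matrix genes tested none was called, with a median log2 change of 0.0094, beside -0.02 over all genes tested. With 3 stromal genes asked of the comparison cells, 344 cells were left and 0 of 290 genes were called by edgeR, with 33 at an unadjusted p under 0.05. The lowest adjusted p belonged to Gadd45b, a stress-response gene, at 2201 ± 673 CPM in Angptl7 cells and 1043 ± 290 CPM on the Col6a5 side (SD, n = 7; log2 change 1.07 ± 0.20, edgeR adjusted p = 0.0546), higher in 7 of 7 mice.

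Some genes that led the other contrasts had large changes here too, without passing the test. Mfap4 had a log2 change of 2.08 ± 0.54 and Fxyd6, a regulator of the sodium pump, 1.91 ± 0.49, both higher in 7 of 7 mice (edgeR adjusted p = 0.120 for each). Smoc2, a matricellular protein, had 2.24 ± 0.53 and Serpinf1 1.37 ± 0.33 (edgeR adjusted p = 0.0928 for each). Ogn, by contrast, was at 853, 1528 and 1591 CPM in the lowest, median and highest mouse of Angptl7 cells and at 619.6, 1189 and 2071 CPM on the Col6a5 side, a log2 change of 0.23 ± 0.24 with overlapping groups. With mice of at least 2 cells per group admitted (14 mice), Fxyd6, Ccn2, Mfap4, Smoc2 and Bgn passed as higher and Ugdh and Apoe as lower, an alternative added after the data were seen.

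**Figure D4:**
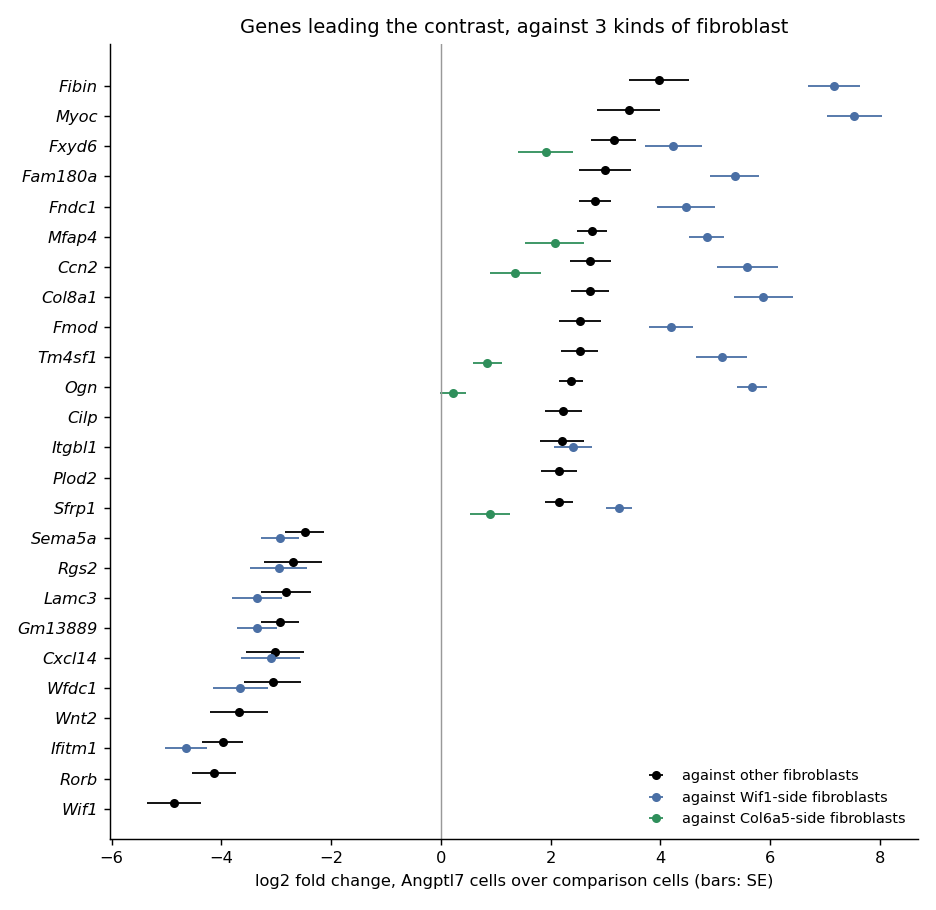
Log2 fold change of Angptl7 cells over comparison cells (horizontal axis, bars are SE) for the 15 genes with the largest rise and 10 with the largest fall against other fibroblasts (vertical axis), also against Wif1-side and Col6a5-side fibroblasts where the gene passed the filter there. Rises are larger against the Wif1 side, as for Ogn at 5.67, and near 0 to about 2 against the Col6a5 side, where none passed the test.

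The leading genes also varied with the Angptl7 count of the cell. In the diet pool, fibroblasts with 0, 1, 2 or 3, and 4 or more Angptl7 UMIs (1324, 18, 7 and 15 cells with at least 3 stromal genes) had Mfap4 at 203, 765, 1012 and 2279 CPM of summed UMIs. In the aging pool the same classes (650, 14, 7 and 9 cells) had 90.4, 572, 510.1 and 1369 CPM, and in the single-mouse libraries (497, 31, 39 and 53 cells) 384, 2339, 2161 and 2249 CPM. The cells with 1 UMI, just outside the rule, were thus above the cells with 0 in each set. They lay below both classes of members in the diet pool, between the classes of members in the aging pool and slightly above both in the single-mouse libraries. Wif1 was at 1752, 57.2, 26.8 and 0 CPM across the aging pool classes, 862, 127, 0 and 0 CPM in the diet pool and 953, 0, 0 and 89.5 CPM in the single-mouse libraries.

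**Figure D5:**
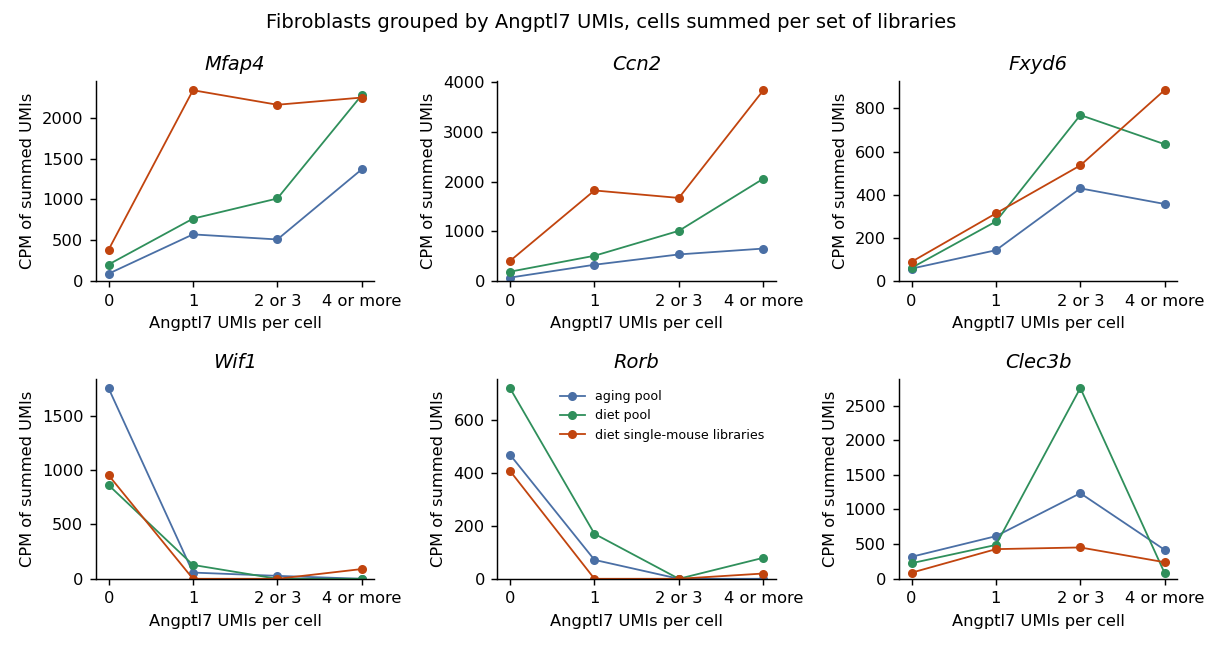
Level in CPM of summed UMIs (vertical axes, from 0) of 6 genes in fibroblasts grouped by their number of Angptl7 UMIs (horizontal axes), 1 line per set of libraries. Mfap4, Ccn2 and Fxyd6 are lowest and Wif1 and Rorb highest at 0 UMIs in each set; the classes hold as few as 7 cells and carry no test.

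Clec3b differed between the classes of members, partly through single cells. Cells with 2 or 3 Angptl7 UMIs had Clec3b at 1235 CPM in the aging pool, 2753 CPM in the diet pool and 452 CPM in the single-mouse libraries, and cells with 4 or more had 417, 79.3 and 239 CPM. In the diet pool 1 cell with mesothelial markers held 54 of the 68 Clec3b UMIs of the first class. In the aging pool 1 cell without such markers held 23 of the 46. Without the cells that carried mesothelial markers the first class had 1681, 802 and 452 CPM and the second 274, 79.3 and 239 CPM, from 6 and 7 cells in the aging pool and 6 and 15 in the diet pool, with no test.

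Whether the contrast with other fibroblasts differed between sets was tested as an interaction. Between the aging and diet pools, with 1 mouse against 3, 0 of 1778 genes were called (0%) by edgeR, with 107 at an unadjusted p under 0.05. Mouse 28C2, alone on its side, is assumed in this fit to vary like the others, and 0 calls do not show that the pools act alike. Between the single-mouse libraries and the diet pool, a test added after the data were seen, 11 of 1554 genes were called (0.708%): Svs1, Svs2, Svs4, Svs5, Svs6, Pate4, Spinkl, Gm42418 and Actg1 were relatively higher in the Angptl7 cells of the single-mouse libraries, and Dbi and Fam180a relatively lower. Fam180a rose in both sets, by 4.90 on the log2 scale in the diet pool and by 2.01 in the single-mouse libraries. With comparison cells matched in total UMIs, 0 of 291 genes were called by edgeR, with 31 at an unadjusted p under 0.05. Age could not be tested within the Angptl7 cells, as each 3 month mouse of the aging pool had 1 of them.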

How the data were processed

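Dissociated glands were captured with 10x Genomics 3' chemistry. The authors aligned reads to mm10 with Cell Ranger, in different versions for the pools and the single libraries per the file headers, and deposited UMI counts per gene and cell for each mouse, pools split by sample tags; the submitters' notes name Seurat. Mouse conditions inside the pools were read from the names of the deposited tables, the tag sheets and the study's sample list. No doublet caller was run here.

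Counts of 30406 Ensembl genes shared by both references were summed per mouse and cell group. edgeR 4.0.16 (TMM, filterByExpr, robust quasi-likelihood test, mouse as block, Benjamini-Hochberg over all genes tested) was used on mice with at least 5 cells in each group, with DESeq2 1.42.0 as an alternative. Genes of the rule were left out of the calls. Standard errors were taken from the log2 change and its F statistic. On simulated counts of 1682 genes, 97.6% of 166 genes changed by 2 on the log2 scale were recovered in the comparison with other fibroblasts. These counts had the same mean profile in every mouse and a fixed spread. The share recovered checks the fit and does not give the power in the real mice. Shares have exact Clopper-Pearson intervals.

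Genes named are the 15 largest rises and 10 largest falls (6 and 6 for the Wif1-side and Col6a5-side comparisons) with adjusted p under 0.05, a mean of at least 20 CPM in the higher group and 1 direction in at least 80% of mice, and members of gene lists. Smoc2, Serpinf1, Gadd45b, Ugdh and Apoe, and the interaction genes beyond the first 5 in each direction, were named after their values were seen. Members, lists and tests were chosen with earlier results of these data known. Some genes of the lists are not reported here.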

Additional observations from a re-analysis of the deposited data

Results flagged for a closer look

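In the groups of 7 mice compared, single mice stood apart for 10 of 54 groups of values examined. How many groups chance alone would flag was not tested. Among Angptl7 cells, which are as few as 5 per mouse, these were Fibin in LP2 at 1103 CPM, Fam180a and Tm4sf1 in HF1 at 750.3 and 2626 CPM, and Cilp and Lamc3 in LP1 at 52.1 and 156 CPM. In mouse 28C2, the only aging pool mouse compared, Fndc1 was at 895 CPM, Ogn at 659.6 CPM and Cxcl14 at 565 CPM, and Fndc1 was high in its other fibroblasts too, at 168 CPM. Wif1 reached 208 CPM in the control diet single-mouse library.

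The contrast between Angptl7 cells and other fibroblasts differed between the single-mouse libraries and the diet pool for 11 genes by an interaction term in edgeR. The differences in log2 change were 8.04 for Svs1, 3.84 for Spinkl, 3.27 for Pate4, 2.74 for Svs6, 2.50 for Svs2, 2.44 for Svs4, 2.26 for Svs5, 2.23 for Gm42418, 1.51 for Actg1, -1.94 for Dbi and -2.89 for Fam180a, with adjusted p from 0.00271 to 0.0270. Svs1 had 0 UMIs in the Angptl7 cells of the diet pool. Its fitted difference therefore has no exact size, and its place in this order is not settled. The share of Angptl7 cells was 12.5 percentage points higher in the single-mouse libraries than in the diet pool.

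A pair of further single-mouse libraries, of FVB/NJ males of 3 and 18 months, lay outside the rule and entered no test. The same limits found 34 Angptl7 cells in the younger mouse, 3.07% of its fibroblasts (exact 95% interval 2.13 to 4.26%), and 27 in the older, 2.08% (1.38 to 3.02%). At least 2 UMIs of Col6a5 and Clec3b were found in 31 and 23 of them, and at least 2 of Wif1, Rorb and Wnt2 in 0 of either.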

How the results depend on the processing

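Angptl7 and comparison cells of the same mouse were paired by the mouse block in the main fit, and without it 179 genes were called against other fibroblasts. For age, rapamycin and diet, which compare different mice, the case is another. No paired analysis was possible because the replicate numbers in the labels do not pair mice across groups. Fits for age within Angptl7 cells and for the aging pool alone could not be fitted, with too few mice of 5 cells.

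Against other fibroblasts, where 142 genes were called, the count was 691 without the filter on low counts, 59 without the single-mouse libraries, 85 at 4 or more Angptl7 UMIs, 547 with 1 of 5 stromal genes on both sides, 32 (of 249 tested) with comparison cells matched in total UMIs, and 2 in the aging pool alone with at least 2 cells per group; leaving out 1 mouse gave 76 to 167. Against Wif1-side fibroblasts (300) it was 990 without the filter, 143 in the diet pool alone, 153 with comparison cells of at least 3 stromal genes and 167 without the single-mouse libraries, and 191 to 359 leaving out 1 mouse. Against Col6a5-side fibroblasts (0) it was 10 with DESeq2, 26 without the filter, 9 in the diet pool alone, 8 in the single-mouse libraries alone, 4 without the mouse block, 16 with at least 10 cells and 7 with at least 2 cells, and 0 to 1 leaving out 1 mouse. The interaction between pools gave 3 without the filter, and that between single-mouse libraries and diet pool 0 with matched cells. The cause of these shifts was not tested. Of 602 values of the 25 genes named against other fibroblasts, none reversed and 28 lost the call, among them 11 of the 13 genes tested in the aging pool alone; of 190 values of 12 genes against the Wif1 side none reversed and 4 lost the call.

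For shares, the rapamycin difference reversed to -0.20 points with 1 of 5 stromal genes, -0.22 at 4 or more UMIs, -3.10 thinned to 1500 UMIs and -1.70 thinned to 800, and ran from -0.77 to 1.87 leaving out 1 mouse. The caloric restriction difference reversed to 1.45 at 1 or more UMIs and 0.0762 with 1 of 5 stromal genes, and ran from -0.90 to 0.43 leaving out 1 mouse. The high fat difference reversed to -1.11 thinned to 800 UMIs, where the low protein difference was 0.741. The share in the single-mouse libraries moved to 5.83% with 1 of 5 stromal genes and 8.67% at 4 or more UMIs. None of the share comparisons within the pools passed 0.05 in any setting.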
